A study of Homo sapiens with 12 samples.

Results

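Mesenchymal regulators of SK-N-SH neuroblastoma cells were followed across surfaces of 3 stiffnesses. The set held 10 genes taken from the deposited count table by symbol, 8 transcription factors (PRRX1, TWIST1, TWIST2, SNAI2, ZEB1, ZEB2, RUNX1 and RUNX2) and 2 structural products of mesenchymal cells (VIM and FN1). These were 10 of the 60664 genes in the table, and all 10 were among the 17960 genes that passed the filter on low counts. SK-N-SH is an established human neuroblastoma line that mixes neuron-like cells with flat, substrate-adherent cells. Every library came from this line without any other labelled treatment, and the 3 groups differed in the stiffness of the surface, 1, 8 or 30 kilopascals (kPa), with 4 libraries each. The labels give neither the material of the surface nor the culture time, and do not say whether the 4 libraries of a stiffness were separate cultures, so the spread that a p-value is set against may be technical. Errors written with ± are standard deviations (SD) over the n = 4 libraries of a group.

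Neuroblastoma cells occupy an adrenergic state, close to sympathetic neurons, or a mesenchymal state that resembles neural crest cells, and lines such as SK-N-SH hold both. PRRX1, a paired-type homeobox factor, can drive the mesenchymal state when it is expressed in adrenergic cells. TWIST, SNAIL and ZEB factors bind E-boxes, short sites of the form CANNTG, and are best known for repressing epithelial genes during epithelial-mesenchymal transition, while RUNX factors bind a TGTGGT core together with the partner CBFB.

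Promoters are shown for the 2 genes that passed a test between stiffnesses, PRRX1 and TWIST2, and for ZEB1. Of 7 ZEB1 windows the printed one was chosen because it held the most copies of the E-box CAGGTG, while 1 other held a single copy and 5 held none. Each is the 250 bases before a transcription start in RefSeq on GRCh38.p14, written 5′ to 3′ on the strand of the gene, with capitals marking motifs found on either strand. No window was printed for the other members. The PRRX1 window (chr1:170663881-170664130, plus strand) was searched for CANNTG, and no match was found, so it holds no capitals. This window lies inside the annotated PRRX1 gene, which starts at 170662728. In TWIST2 (chr2:238847835-238848084, plus strand) capitals mark the GC box GGGCGG or its reverse complement CCGCCC. The ZEB1 window also lies inside its annotated gene, which starts at 31318495. In ZEB1 (chr10:31318966-31319215, plus strand) capitals mark CAGGTG or its reverse complement CACCTG, a high-affinity E-box that is 1 form of CANNTG.
PRRX1: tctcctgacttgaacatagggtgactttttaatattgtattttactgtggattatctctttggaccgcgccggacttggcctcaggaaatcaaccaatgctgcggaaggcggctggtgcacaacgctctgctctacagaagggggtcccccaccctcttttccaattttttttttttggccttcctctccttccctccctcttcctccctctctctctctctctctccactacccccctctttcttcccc
TWIST2: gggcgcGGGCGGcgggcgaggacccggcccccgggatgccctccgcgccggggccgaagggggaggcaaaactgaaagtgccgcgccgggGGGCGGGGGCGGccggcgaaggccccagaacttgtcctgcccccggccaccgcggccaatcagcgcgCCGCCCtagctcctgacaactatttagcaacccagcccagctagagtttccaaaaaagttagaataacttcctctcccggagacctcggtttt
ZEB1: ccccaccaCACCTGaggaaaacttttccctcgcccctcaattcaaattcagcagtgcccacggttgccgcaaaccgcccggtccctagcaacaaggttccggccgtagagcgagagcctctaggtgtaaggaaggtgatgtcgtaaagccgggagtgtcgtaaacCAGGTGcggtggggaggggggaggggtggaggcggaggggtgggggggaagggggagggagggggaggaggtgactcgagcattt

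The TWIST2 window held 4 GC boxes and had a GC content of 68.4%, against 50.8% for the PRRX1 window and a median of 58% over 35116 human promoter windows of the same length. GGGCGG occurred in 42.6% of those windows, CANNTG in 61.8%, CAGGTG in 17.5% and TGTGGT in 11%. The ZEB1 window held 2 CAGGTG sites, and these were also its only CANNTG matches. Among the 15 windows compared, which came from 8 members and did not cover TWIST1 or SNAI2, the richest in GC boxes was that of FN1, with 6. A match gives the letters of the window and not the binding of a factor.

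The libraries held 14317437 to 15896607 counts at 1 kPa, 14951116 to 25349320 at 8 kPa and 23896536 to 27820973 at 30 kPa. Every 1 kPa library was thus less deep than any at 30 kPa, and replicate 1 at 8 kPa, the one with 14951116 counts, was the only stiffer library as shallow as the 1 kPa ones. The 10 genes together took between 0.331% and 0.440% of all counts in a library. Of the lineage markers, the 7 adrenergic ones summed to 410 to 740 CPM (counts scaled to library size after TMM) over the 12 libraries, while immune markers summed to at most 0.646 CPM. The 6 epithelial markers summed to at most 5.38 CPM. Of these, KRT5 and KRT14 were at 0 everywhere, while KRT19 had 0.325 to 0.919 CPM, EPCAM 1.13 to 2.09 CPM and CLDN4 1.59 to 2.62 CPM. The substrate-adherent markers contain 4 of the genes described here and are no independent check of the label.

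PRRX1 and TWIST2 were the genes of the set that passed a test between stiffnesses in the edgeR fit with stiffness as the term. Both calls were lost when a term for library depth was added to the fit. In that fit 0 of all 17960 tested genes passed, so the loss was not particular to these genes. TWIST2 rose at 8 kPa against 1 kPa, to 1.44-fold, and PRRX1 fell at 30 kPa against 1 kPa, to 0.784-fold. Between 8 and 1 kPa, 1 of the 10 genes passed edgeR's quasi-likelihood test at an adjusted p of 0.05, upward, where 13.8% of the 17960 tested genes passed, 8.17% being higher and 5.6% lower at 8 kPa. An unadjusted p under 0.05 was reached by 3 of the 10 members, TWIST2 included, and by 31.2% of all genes. Between 30 and 8 kPa, 0 of the 10 passed and the share over all genes was 0%, although 4 members and 17.9% of all genes had an unadjusted p under 0.05. With DESeq2 1 member and 414 of all genes passed there, and with limma-voom 0 members did. Between 30 and 1 kPa, 1 of the 10 passed, downward, where 2.43% of all genes passed, 1.1% being higher and 1.33% lower at 30 kPa, and 2 members and 18.9% of all genes had an unadjusted p under 0.05. In a test across the 3 stiffnesses at once, 2 of the 10 passed (PRRX1, adjusted p = 0.0177, and TWIST2, adjusted p = 0.0444), where 9.16% of all genes did. In that test PRRX1 held in 12 of 12 edgeR fits that left out 1 library (adjusted p of at most 0.0495) and TWIST2 in 2 of 12 (adjusted p of 0.0121 to 0.117), and with limma-voom 1 of the 10 genes passed. The median log2 fold change of the 10 genes was -0.01 for 8 against 1 kPa, -0.12 for 30 against 8 kPa and 0.04 for 30 against 1 kPa, beside -0.01, 0.00 and 0.00 over all tested genes. The fold change was above 0 for 4 of the 10 genes at 8 against 1 kPa (47.6% of all genes), for 3 at 30 against 8 kPa (50.9%) and for 7 at 30 against 1 kPa (50%). Comparisons that share a group share its libraries and are not independent of each other.

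**Figure D1:**
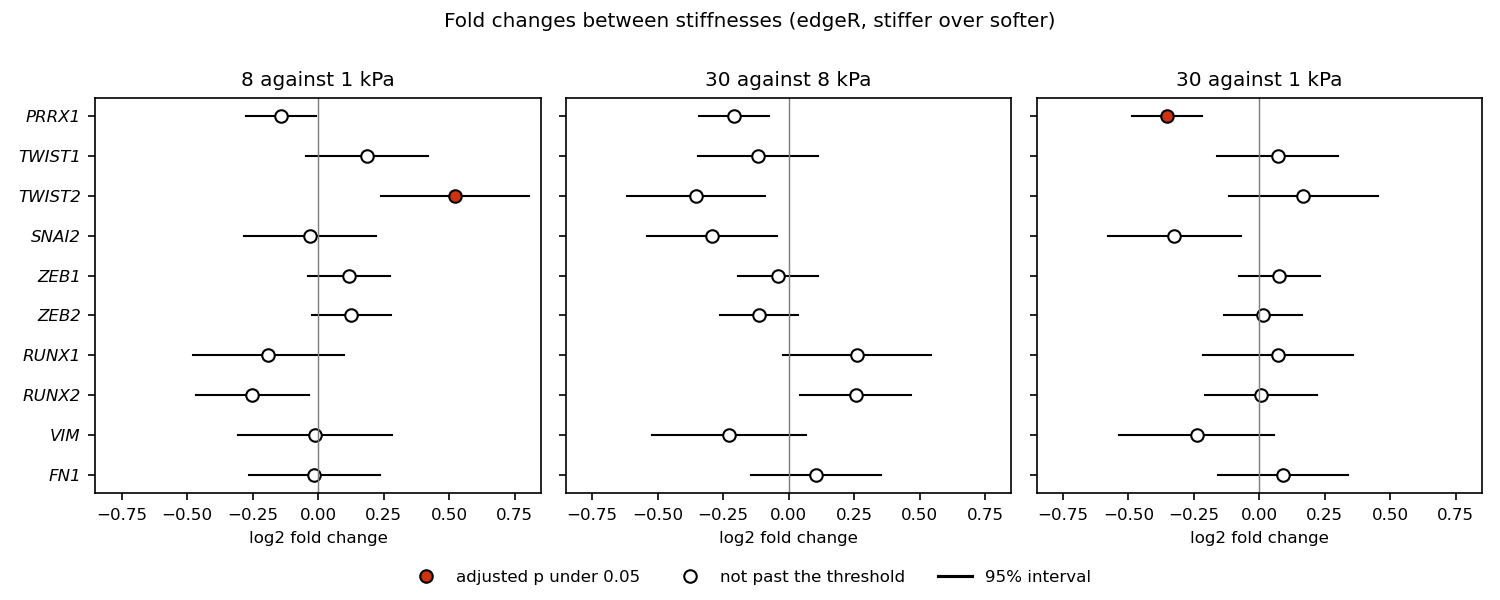
Log2 fold change (x axis, stiffer over softer) of each gene (y axis) for 8 against 1 kPa, 30 against 8 kPa and 30 against 1 kPa, from edgeR, with bars for the 95% interval and filled points for an adjusted p under 0.05. The filled points are TWIST2 for 8 against 1 kPa, at 0.52, and PRRX1 for 30 against 1 kPa, at -0.35.

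PRRX1 (ENSG00000116132, chr1:170662728-170739419 on GRCh38, plus strand) was among the highest of the set. Replicates 1 to 4 had 1820, 1750, 1841 and 1767 CPM at 1 kPa, 1673, 1572, 1720 and 1540 CPM at 8 kPa, and 1469, 1390, 1371 and 1398 CPM at 30 kPa. The 3 groups stood apart without overlap, with the highest values on the softest surface and the lowest on the stiffest. Its mean was 1794 ± 42.9 CPM at 1 kPa, 1626 ± 84.3 CPM at 8 kPa and 1407 ± 43.0 CPM at 30 kPa.

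For 30 against 1 kPa the log2 fold change of PRRX1 was -0.35 (SE 0.0626, 95% interval -0.49 to -0.22, adjusted p = 0.0144 in edgeR). Groups without overlap were seen for 11.4% of all genes in this comparison. The single steps were smaller and did not pass in edgeR, with -0.14 for 8 against 1 kPa (interval -0.28 to -0.01, adjusted p = 0.138) and -0.21 for 30 against 8 kPa (interval -0.34 to -0.08, adjusted p = 0.150). Groups without overlap were seen for 16.8% and 11.3% of all genes in those steps. With DESeq2 both steps passed, at adjusted p = 0.0192 for 8 against 1 kPa and 0.00256 for 30 against 8 kPa. The 30 against 1 kPa call was kept in 11 of 12 fits that left out 1 library and was lost without 30 kPa replicate 3 (-0.34, adjusted p = 0.0622).

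Depth changed with stiffness, and no 30 kPa library was as shallow as the 1 kPa libraries, so between those groups stiffness and depth cannot be told apart by any direct comparison. With depth class (5 shallow and 7 deep libraries) added to the fit, a term that rests on 8 kPa replicate 1, PRRX1 had -0.30 for 30 against 1 kPa with an adjusted p of 0.487 in edgeR, a setting in which 0 genes of 17960 passed and 1763 had an unadjusted p under 0.05. Within the shallow class, 8 kPa replicate 1 had 1673 CPM of PRRX1, below all 4 libraries at 1 kPa (1750 to 1841), a position that 30.6% of all genes shared. Within the deep class, the 30 kPa libraries had 1371 to 1469 CPM of PRRX1 and the 3 deep 8 kPa libraries 1540 to 1720 CPM. How many of all genes separated in the same way was not counted. Without 8 kPa replicate 1, PRRX1 had -0.19 for 30 against 8 kPa, with an adjusted p of 0.393 in edgeR.

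TWIST2 (ENSG00000233608, chr2:238848032-238910543, plus strand), a basic helix-loop-helix factor of mesenchymal and dermal tissue, was scarce, with 62 to 199 reads per library. Replicates 1 to 4 had 4.61, 4.45, 4.29 and 5.44 CPM at 1 kPa, 7.02, 8.01, 6.64 and 5.40 CPM at 8 kPa, and 4.76, 5.39, 5.55 and 5.44 CPM at 30 kPa. The 8 kPa libraries were the highest apart from replicate 4, which lay inside the range of both other groups. The means were 4.70 ± 0.513 CPM at 1 kPa, 6.77 ± 1.08 CPM at 8 kPa and 5.28 ± 0.359 CPM at 30 kPa.

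For 8 against 1 kPa the log2 fold change of TWIST2 was 0.52 (SE 0.132, 95% interval 0.24 to 0.80, adjusted p = 0.0220 in edgeR). It did not pass for 30 against 8 kPa (-0.35, interval -0.62 to -0.09, adjusted p = 0.182) or for 30 against 1 kPa (0.17, adjusted p = 0.536). The 8 against 1 kPa call was kept in 7 of 12 edgeR fits that left out 1 library, with fold changes of 0.43 to 0.62. Leaving out replicate 2 or 3 at 1 kPa ended it (adjusted p = 0.0582 and 0.0616), as did leaving out replicate 1, 2 or 3 at 8 kPa (adjusted p = 0.0630, 0.0553 and 0.0626). Without 8 kPa replicate 4, TWIST2 also passed for 30 against 8 kPa (-0.45, adjusted p = 0.0385 in edgeR). The call was also lost when only the 8 libraries of both groups were fitted (adjusted p = 0.0577) and in the fit that included depth class (0.58, adjusted p = 0.132). Within the shallow class, 8 kPa replicate 1 had 7.02 CPM, above all 1 kPa libraries, as was so for 29.9% of all genes.

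TWIST1 (ENSG00000122691, chr7:19020991-19117672, minus strand), the close relative of TWIST2 and a neural crest regulator, had more reads per kilobase of exon (47.6 CPM per kb at 1 kPa, beside 2.50 for TWIST2). Replicates 1 to 4 had 114, 75.3, 88.3 and 109 CPM at 1 kPa, 122, 106, 116 and 97.0 CPM at 8 kPa, and 105, 97.7, 104 and 98.7 CPM at 30 kPa. All groups overlapped, and the widest spread was at 1 kPa, where replicate 2 was the lowest of all 12 libraries. TWIST1 did not pass in any edgeR comparison, with 0.19 for 8 against 1 kPa (interval -0.05 to 0.42, adjusted p = 0.257), -0.12 for 30 against 8 kPa (adjusted p = 0.591) and 0.07 for 30 against 1 kPa (adjusted p = 0.784). There were 4.95 ± 0.769 TWIST2 reads per 100 TWIST1 reads at 1 kPa, 6.15 ± 0.934 at 8 kPa and 5.22 ± 0.478 at 30 kPa. The 8 kPa ratios (5.57 to 7.55) lay just above those at 30 kPa (4.51 to 5.52), and both overlapped the 1 kPa ratios (4.03 to 5.91).

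**Figure D2:**
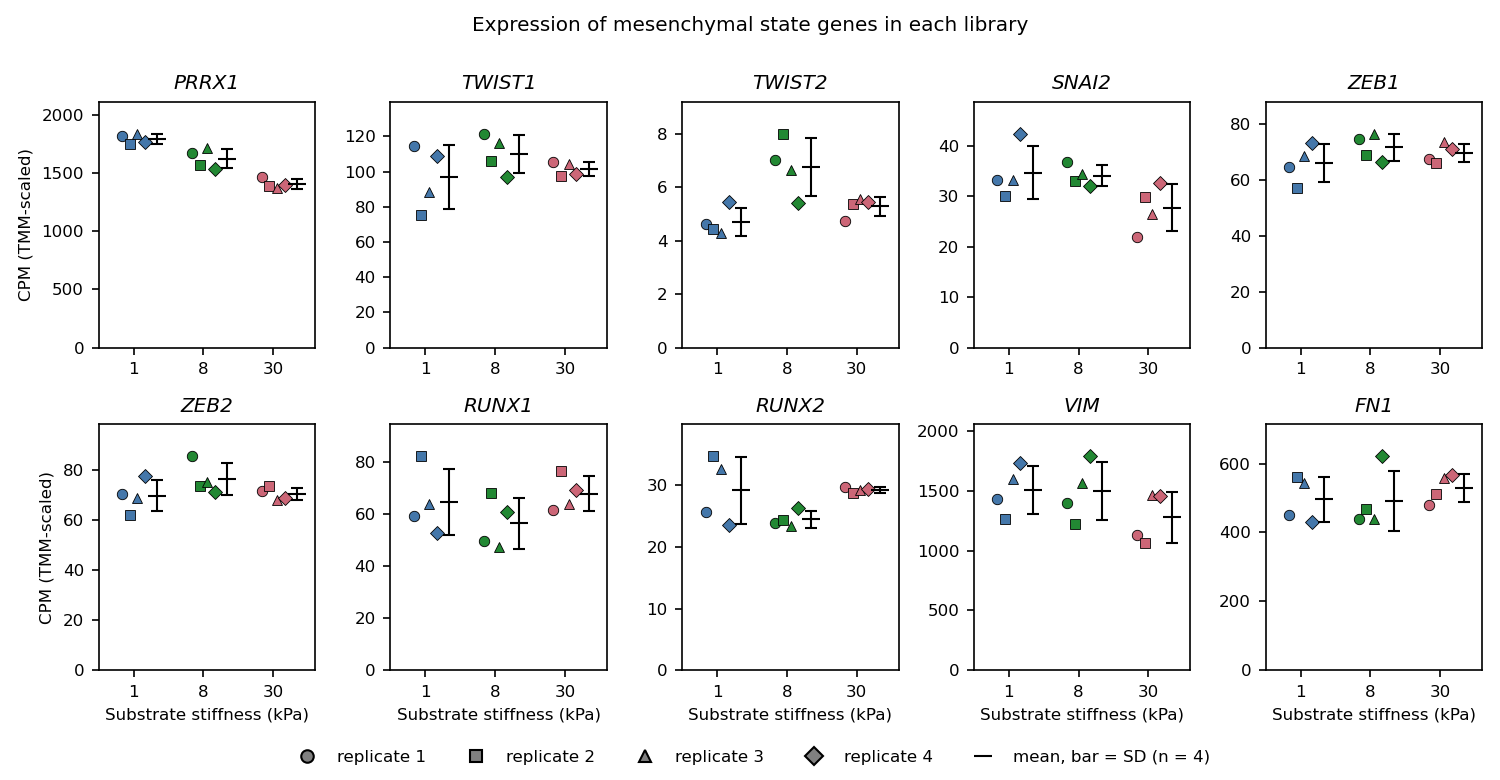
Expression in CPM after TMM scaling (y axis, from 0, on a separate scale per gene) against the stiffness of the surface in kPa (x axis), with 1 symbol per library and the mean and SD (n = 4) beside each group. PRRX1 separates into 3 groups between 1371 and 1841 CPM, while TWIST2 is highest in 3 of the 4 libraries at 8 kPa and the other genes overlap between 1 kPa and both stiffer groups.

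SNAI2 (ENSG00000019549, chr8:48917604-48921740, minus strand), the zinc-finger repressor Slug of migrating neural crest, had 33.2, 30.003, 33.1 and 42.4 CPM at 1 kPa in replicates 1 to 4. It had 36.7, 33.0, 34.3 and 32.0 CPM at 8 kPa, and 21.9, 29.7, 26.5 and 32.7 CPM at 30 kPa. The 30 kPa libraries were the lowest as a group, but replicate 4 at 30 kPa lay inside the ranges of both softer groups. SNAI2 did not pass, with -0.03 for 8 against 1 kPa (interval -0.28 to 0.22, adjusted p = 0.885), -0.29 for 30 against 8 kPa (interval -0.54 to -0.04, adjusted p = 0.219) and -0.32 for 30 against 1 kPa (interval -0.58 to -0.07, adjusted p = 0.155, all in edgeR).

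ZEB1 (ENSG00000148516, chr10:31318495-31529814, plus strand) and ZEB2 (ENSG00000169554, chr2:144364364-144524583, minus strand) are large repressors with zinc fingers at both ends. ZEB1 averaged 66.1 ± 6.82 CPM at 1 kPa, 71.8 ± 4.76 CPM at 8 kPa and 69.7 ± 3.38 CPM at 30 kPa, with libraries of 57.3 to 76.6 CPM. ZEB2 averaged 69.8 ± 6.30 CPM at 1 kPa, 76.4 ± 6.33 CPM at 8 kPa and 70.5 ± 2.46 CPM at 30 kPa, and its highest library was 8 kPa replicate 1, at 85.6 CPM. Both genes overlapped between all groups. For 8 against 1 kPa the log2 fold change was 0.12 for ZEB1 (interval -0.04 to 0.27, adjusted p = 0.284) and 0.13 for ZEB2 (interval -0.02 to 0.28, adjusted p = 0.230), neither past the threshold in edgeR. For 30 against 1 kPa it was 0.08 for ZEB1 (adjusted p = 0.617) and 0.01 for ZEB2 (adjusted p = 0.942), and for 30 against 8 kPa -0.04 (adjusted p = 0.795) and -0.11 (adjusted p = 0.399). Not scaled for length, there were 106 ± 4.07 ZEB2 reads per 100 ZEB1 reads at 1 kPa, 106 ± 6.68 at 8 kPa and 101 ± 8.35 at 30 kPa.

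RUNX1 (ENSG00000159216, chr21:34787801-36004667, minus strand), best known from blood stem cells, had 59.4, 82.2, 63.8 and 52.7 CPM at 1 kPa in replicates 1 to 4. It had 49.7, 67.9, 47.2 and 60.9 CPM at 8 kPa, and 61.4, 76.6, 63.7 and 69.0 CPM at 30 kPa. Replicate 2 was the highest library of RUNX1 at each stiffness, and all groups overlapped. The log2 fold change was -0.19 for 8 against 1 kPa (interval -0.48 to 0.10, adjusted p = 0.355), 0.26 for 30 against 8 kPa (interval -0.02 to 0.54, adjusted p = 0.313) and 0.07 for 30 against 1 kPa (adjusted p = 0.830), none past the threshold in edgeR.

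RUNX2 (ENSG00000124813, chr6:45328157-45664349, plus strand), the master regulator of osteoblasts, had 25.6, 34.7, 32.7 and 23.6 CPM at 1 kPa, 23.9, 24.3, 23.3 and 26.4 CPM at 8 kPa, and 29.7, 28.7, 29.2 and 29.4 CPM at 30 kPa. The 30 kPa libraries lay close together and above all 8 kPa libraries, while the 1 kPa libraries spanned both groups. Between 30 and 8 kPa, groups without overlap were seen for 11.3% of all genes. The log2 fold change for 30 against 8 kPa was 0.26 (interval 0.04 to 0.47), with an adjusted p of 0.211 in edgeR that did not pass. It was -0.25 for 8 against 1 kPa (interval -0.47 to -0.03, adjusted p = 0.108), which passed without 1 kPa replicate 4 (-0.35, adjusted p = 0.0178), and 0.00 for 30 against 1 kPa (adjusted p = 0.986). There were 45.4 ± 4.06 RUNX2 reads per 100 RUNX1 reads at 1 kPa, 44.2 ± 6.14 at 8 kPa and 43.6 ± 4.69 at 30 kPa.

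VIM (ENSG00000026025, chr10:17228259-17237593, plus strand) encodes vimentin, the intermediate filament of mesenchymal cells. Replicates 1 to 4 had 1433, 1266, 1603 and 1735 CPM at 1 kPa, 1403, 1223, 1571 and 1791 CPM at 8 kPa, and 1130, 1060, 1463 and 1459 CPM at 30 kPa. All groups overlapped, with replicate 2 the lowest library at each stiffness. VIM did not pass in the edgeR fit with stiffness as the term, with -0.01 for 8 against 1 kPa (interval -0.31 to 0.28, adjusted p = 0.967), -0.23 for 30 against 8 kPa (interval -0.52 to 0.07, adjusted p = 0.397) and -0.24 for 30 against 1 kPa (interval -0.53 to 0.05, adjusted p = 0.368).

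FN1 (ENSG00000115414, chr2:215360440-215436172, minus strand) encodes fibronectin, a matrix glycoprotein that cells bind through integrins. Replicates 1 to 4 had 452, 562, 543 and 430 CPM at 1 kPa, 438, 469, 439 and 622 CPM at 8 kPa, and 480, 510, 558 and 567 CPM at 30 kPa. The groups overlapped, and 8 kPa replicate 4 stood above the other 11 libraries. FN1 did not pass in edgeR, with -0.01 for 8 against 1 kPa (interval -0.26 to 0.24, adjusted p = 0.950), 0.10 for 30 against 8 kPa (interval -0.14 to 0.35, adjusted p = 0.668) and 0.09 for 30 against 1 kPa (interval -0.16 to 0.34, adjusted p = 0.733). Counted per 100 VIM reads, there were 33.7 ± 8.13 FN1 reads at 1 kPa, 33.0 ± 4.48 at 8 kPa and 41.9 ± 4.58 at 30 kPa.

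Levels of different genes were compared per kilobase (kb) of the exons of all annotated isoforms, in CPM per kb. At 1 kPa the order was VIM (293), PRRX1 (218), TWIST1 (47.6), FN1 (28.7), SNAI2 (10.2) and ZEB1 (7.64), and each of these stood above the next without overlap between libraries. The same 6 genes led in the same order at 8 kPa, with VIM at 290 and PRRX1 at 197, and at 30 kPa, with VIM at 248 and PRRX1 at 171, except that SNAI2 (8.17) and ZEB1 (8.06) overlapped at 30 kPa. RUNX1, RUNX2, ZEB2 and TWIST2 formed the low end, spanning 2.50 to 4.14 at 1 kPa, 2.99 to 3.62 at 8 kPa and 2.81 to 4.35 at 30 kPa. Neighbours in that low end overlapped at 1 and 8 kPa, whereas at 30 kPa RUNX1 (4.35) stood above RUNX2 (3.57) and RUNX2 above ZEB2 (2.81), which overlapped TWIST2 (2.81). PRRX1 was thus the transcription factor of the set with the most reads per kb at every stiffness. The exon length counts every isoform, from 1878 bases for TWIST2 to 25058 bases for ZEB2, and the part of rarely used exons in these levels was not tested.

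Single libraries differed in several genes at once. Among the 1 kPa libraries, replicate 2 was the lowest for 6 genes (PRRX1, TWIST1, SNAI2, ZEB1, ZEB2 and VIM) and the highest for RUNX1, RUNX2 and FN1. Replicate 4 at 1 kPa was the highest for TWIST2, SNAI2, ZEB1, ZEB2 and VIM and the lowest for RUNX1, RUNX2 and FN1. Among the 8 kPa libraries, replicate 4 was the lowest for all of PRRX1, TWIST1, TWIST2, SNAI2, ZEB1 and ZEB2 and the highest for RUNX2, VIM and FN1. RUNX1 and RUNX2 thus stood opposite to SNAI2, ZEB1 and ZEB2 in both of those 1 kPa libraries. The same 1 kPa replicate 2 was farthest from the rest on the first principal component of all genes (-42.7) and had the lowest adrenergic marker sum, 410 CPM, against 484 to 631 CPM in the other 1 kPa libraries.

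Among the 30 kPa libraries, replicate 1 was the lowest for TWIST2, SNAI2, RUNX1 and FN1 and the highest for PRRX1, TWIST1 and RUNX2. Replicate 2 at 30 kPa was the lowest for TWIST1, ZEB1, RUNX2 and VIM and the highest for ZEB2 and RUNX1.

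The shallow 8 kPa replicate 1 allowed the other genes to be set against 1 kPa at like depth. It stood above all 1 kPa libraries for TWIST1 (122 against 75.3 to 114 CPM), ZEB1 (74.9 against 57.3 to 73.4 CPM) and ZEB2 (85.6 against 62.2 to 77.5 CPM), as it did for TWIST2. It stood below them for RUNX1 (49.7 against 52.7 to 82.2 CPM), as it did for PRRX1, and inside their range for SNAI2, RUNX2, VIM and FN1. With TWIST2 and PRRX1 counted, 4 of the 10 genes stood above and 2 below, where 29.9% of all genes stood above and 30.6% below. The fit that included depth class gave log2 fold changes for 8 against 1 kPa of 0.33 for TWIST1 (adjusted p = 0.248), 0.29 for ZEB2 (adjusted p = 0.102) and -0.38 for RUNX1 (adjusted p = 0.313), none of which passed in edgeR. At 30 against 1 kPa it gave -0.17 for RUNX1 (adjusted p = 0.848) and -0.13 for FN1 (adjusted p = 0.872), where the fit without depth gave 0.07 and 0.09.

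**Figure D3:**
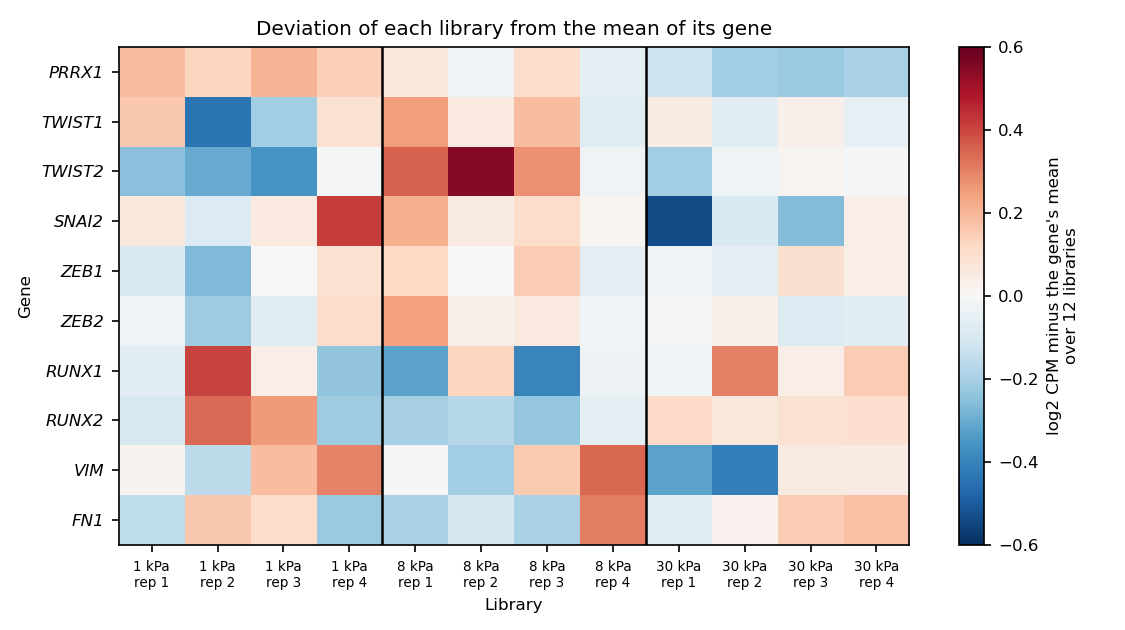
Log2 CPM of each gene (y axis) in each library (x axis, ordered by stiffness and replicate, with lines between stiffnesses) minus the mean of that gene over the 12 libraries, red above and blue below. PRRX1 is red in all 1 kPa libraries and blue in all 30 kPa libraries, while RUNX1 and RUNX2 are deep red in 1 kPa replicate 2 and blue in 1 kPa replicate 4.

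Other genes of the mesenchymal program were read from the same fits. Every call in the lists that follow was lost in the fit that included depth class. That fit called 0 of all 17960 genes, so the loss was not particular to these lists. Of all 17960 tested genes, 8.17% were called higher and 5.6% lower at 8 against 1 kPa. At 30 against 1 kPa the shares were 1.1% and 1.33%, with 18.9% at an unadjusted p under 0.05. Of 26 tested mesenchymal transcription factors outside the set (31 listed), 0 rose and 3 fell at 30 against 1 kPa, with a median log2 fold change of -0.07. These were ELK4, a partner of serum response factor (-0.27, adjusted p = 0.0175), WWTR1 (-0.62, adjusted p = 0.0224) and YAP1 (-0.22, adjusted p = 0.0427), the last 2 being the coactivators TAZ and YAP of the Hippo pathway. Their calls held in 9, 8 and 3 of the 12 edgeR fits that left out 1 library. At 8 against 1 kPa 1 factor fell, the interferon regulator IRF1 (-0.31, adjusted p = 0.0292), while FOXC1 had 0.35 (adjusted p = 0.0697) and YAP1 -0.15 (adjusted p = 0.0705), with a list median of -0.12. DESeq2 called 1 higher and 2 lower in that comparison, where it called 3072 of all genes.

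Of 32 mesenchymal matrix, adhesion and cytoskeleton genes, 0 rose (1.1% of all genes) and 4 fell (1.33%) at 30 against 1 kPa (median -0.03). They were the fibrillar collagen COL3A1 (-0.52, adjusted p = 0.0159), the collagen-binding protein SPARC (-0.32, adjusted p = 0.0299), the TGF-beta-induced matrix protein TGFBI (-0.58, adjusted p = 0.0309) and N-cadherin, CDH2, the last named because it passed. The COL3A1 call held in 10 of 12 edgeR fits that left out 1 library, and those of SPARC and TGFBI in 6 each. At 8 against 1 kPa 0 rose and 1 fell in edgeR, SPARC (-0.25, adjusted p = 0.0317), beside LGALS1 at 0.31 (adjusted p = 0.0536) and TGFBI at -0.36 (adjusted p = 0.0681), with a median of -0.10. DESeq2 called 1 higher and 7 lower there, and limma-voom 1 higher and 1 lower. Over all genes, DESeq2 called 3072 and limma-voom 2347 in that comparison.

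Of 22 dimer partners, antagonists and co-repressors, 5 rose (8.17% of all genes) and 0 fell (5.6%) at 8 against 1 kPa (median 0.16). They included ID1 (0.57, adjusted p = 0.0131) and ID2 (0.31, adjusted p = 0.0274), which sequester the E proteins that TWIST factors pair with, and the ZEB co-repressor CTBP1 (0.16, adjusted p = 0.0305). The other genes that passed, named for that reason, were the deacetylase HDAC2 and the E protein TCF3. ID1 held in 11 and ID2 and CTBP1 in 7 of the 12 edgeR fits that left out 1 library. For 30 against 1 kPa 0 of the 22 passed in edgeR (2.43% of all genes), DESeq2 (1068 of all genes) or limma-voom (421 of all genes). In edgeR the median was 0.07 and 5 had an unadjusted p under 0.05. TLE1 had 0.25 (adjusted p = 0.129), ID3 0.26 (adjusted p = 0.138) and ID1 0.34 (adjusted p = 0.151) in edgeR.

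The epithelial genes that SNAIL and ZEB factors are known to repress were almost silent in every library. Of 16 such genes, only EPCAM and CLDN4 passed the filter on low counts, with at most 2.09 and 2.62 CPM, and the other 14 stayed at or below 0.547 CPM. E-cadherin, CDH1, had 0 to 6 reads per library, and OVOL2, an epithelial factor that opposes ZEB1, had 0 in all. EPCAM had -0.23 for 8 against 1 kPa (adjusted p = 0.492), 0.04 for 30 against 8 kPa (adjusted p = 0.940) and -0.19 for 30 against 1 kPa (adjusted p = 0.681). CLDN4 had 0.00, -0.11 and -0.12 in the same order (adjusted p = 0.989, 0.763 and 0.783), so neither passed in edgeR, DESeq2 or limma-voom, and 0 had an unadjusted p under 0.05.

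Other intermediate filaments and their partners were tested beside VIM. Of 15 tested genes (17 listed), 5 rose (8.17% of all genes) and 0 fell (5.6%) at 8 against 1 kPa (median 0.33). They were the lamin LMNB2 (0.43, adjusted p = 0.0115, held in 12 of 12 edgeR fits without 1 library), the neuronal filaments NEFM (0.70, adjusted p = 0.0352, held in 7) and INA (0.78, adjusted p = 0.0352, held in 6), and LMNB1 and NEFH, named because they passed. At 30 against 1 kPa, LMNB2 alone rose (0.40, adjusted p = 0.0326), where 1.1% of all genes did. The A-type lamin gene LMNA alone fell (-0.51, adjusted p = 0.0448), where 1.33% did. NEFM had 0.63 (adjusted p = 0.106), and the median was 0.12. These calls of LMNB2 and LMNA held in 5 and 3 of 12 such fits.

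Among 14 fibronectin receptors and matrix assembly genes, 0 rose (8.17% of all genes) and 1 fell (5.6%) at 8 against 1 kPa. That was the integrin subunit ITGAV (-0.22, adjusted p = 0.0216, held in 9 of 12 edgeR fits without 1 library). TNS1, a tensin of fibrillar adhesions, had -0.15 (adjusted p = 0.133) and LTBP1 -0.23 (adjusted p = 0.148), and the list median was -0.17. For 30 against 1 kPa 0 passed in edgeR, where 2.43% of all genes did. With DESeq2 2 passed, beside 1068 of all genes, and with limma-voom 1, beside 421. In edgeR the median was 0.00 and 2 had an unadjusted p under 0.05. TNS1 was at -0.26 (adjusted p = 0.0510), ITGAV at -0.19 (adjusted p = 0.0826) and PLAU at 0.40 (adjusted p = 0.273) in edgeR.

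The adrenergic core transcription factors, which mark the opposite state, were read beside the mesenchymal ones. Of 21 tested (22 listed), 4 rose (8.17% of all genes) and 0 fell (5.6%) at 8 against 1 kPa (median 0.31). They included PHOX2A (0.49, adjusted p = 0.0264) and GATA2 (0.46, adjusted p = 0.0265), regulators of sympathetic neurons, and SIX3 (0.65, adjusted p = 0.0265). At 30 against 1 kPa 3 rose (1.1% of all genes), among them SIX3 (0.73, adjusted p = 0.0425) and PHOX2A (0.52, adjusted p = 0.0475), and 0 fell (1.33%) in edgeR, with a median of 0.18. DESeq2 called 7 higher and 0 lower at 8 against 1 kPa, and 7 higher and 1 lower at 30 against 1 kPa. Over all genes it called 3072 and 1068, in the same order. In edgeR fits that left out 1 library, the 8 against 1 kPa calls of PHOX2A and GATA2 held in 7 of 12 each and the 30 against 1 kPa calls of SIX3 and PHOX2A in 2 of 12 each.

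For 30 against 8 kPa 0 genes of these lists passed in edgeR or limma-voom, and 1 did with DESeq2, the mesenchymal coactivator WWTR1. DESeq2 called 414 of all genes there. Of all genes, 17.9% had an unadjusted p under 0.05 in edgeR there. The medians were -0.02 for the transcription factors (7 at an unadjusted p under 0.05), 0.05 for the matrix genes (6), -0.08 for the partners (3), -0.14 for the intermediate filaments (2), 0.14 for the fibronectin receptors (3) and -0.03 for the adrenergic factors (1). The smallest adjusted p in edgeR belonged to WWTR1 (-0.43, 0.150), MAF (0.76, 0.178) and EGR3 (-0.98, 0.179), to S100A4 (-0.40, 0.182), COL3A1 (-0.26, 0.194) and LGALS1 (-0.27, 0.204), and to ID2 (-0.24, 0.181), ID4 (-0.46, 0.199) and SMAD2 (-0.13, 0.231), each given as log2 fold change and adjusted p in the order of the lists. In the other lists it belonged to SYNM (-0.16, 0.216), PRPH (-0.96, 0.248) and PLEC (0.20, 0.284), to PLAU (0.70, 0.138), SDC4 (0.43, 0.179) and PLAUR (0.54, 0.259), and to TBX2 (-0.27, 0.155), ZNF536 (-0.24, 0.492) and KLF13 (-0.21, 0.566).

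**Figure D4:**
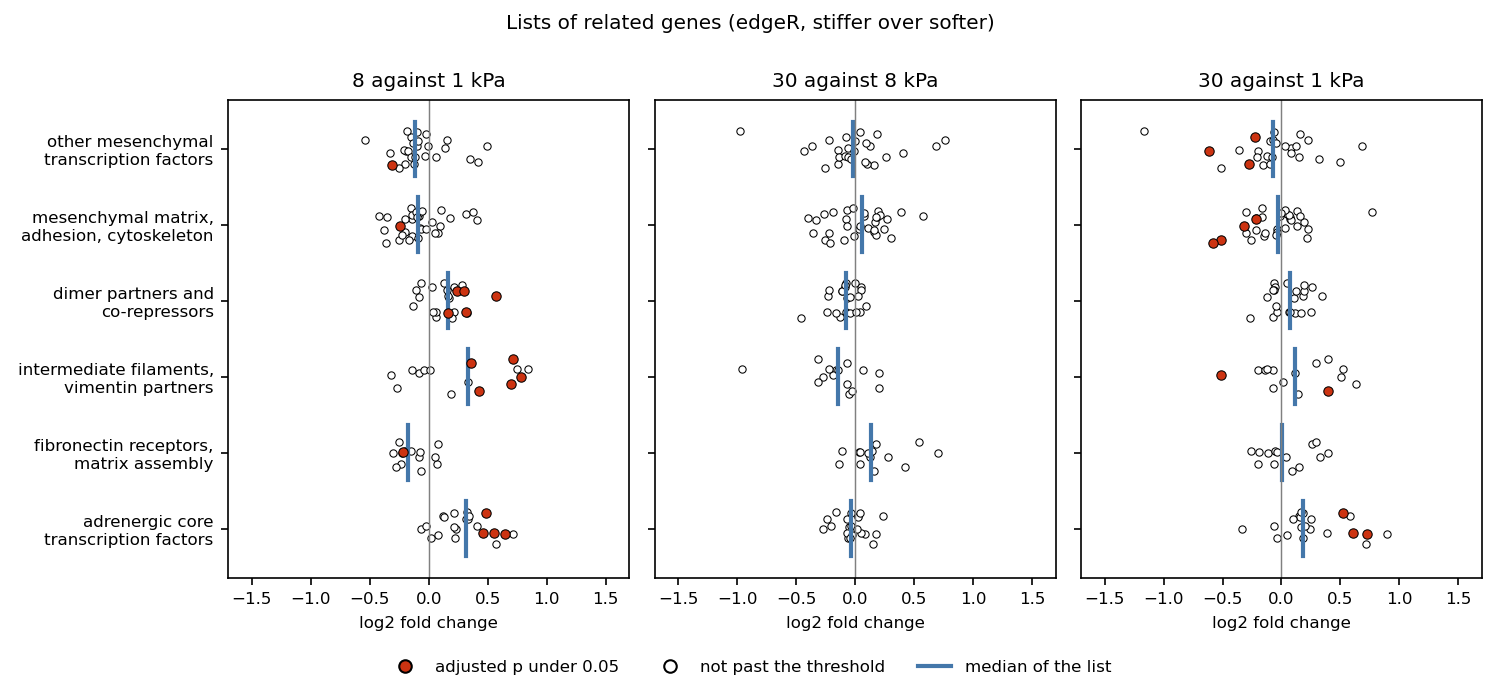
Log2 fold change (x axis, stiffer over softer, edgeR) of every tested gene in 6 lists of related genes (y axis) for the 3 comparisons, with filled points for an adjusted p under 0.05 and a bar at the median of the list. Filled points lie to the right for partners, intermediate filaments and adrenergic factors at 8 against 1 kPa, to the left for the mesenchymal lists, and are absent for 30 against 8 kPa.

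In bulk RNA, fewer cells of a type and less RNA per cell cannot be told apart. The 7 fibroblast markers (6 tested) summed to 2241 to 2541 CPM at 1 kPa, 1962 to 2189 CPM at 8 kPa and 2051 to 2280 CPM at 30 kPa. These sums were lower at 8 than at 1 kPa without overlap, a comparison in which 16.8% of single genes had groups without overlap. Collagens COL1A1 and COL3A1 and lumican made up most of the sums, at no less than 523, 555 and 365 CPM, while PDPN reached at most 0.0417 CPM. The 7 adrenergic markers (6 tested) summed to 410 to 631 CPM at 1 kPa, 522 to 740 CPM at 8 kPa and 570 to 655 CPM at 30 kPa, with TH at most 0.0358 CPM. The 6 endothelial markers (3 tested) summed to 6.05 to 11.2 CPM at 1 kPa, 4.05 to 9.22 CPM at 8 kPa and 3.56 to 4.59 CPM at 30 kPa, and the 6 epithelial markers stayed between 3.64 and 5.38 CPM throughout. The part of these shifts in the PRRX1 and TWIST2 results was not tested.

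Some reads could belong to neighbours on the other strand, since the strand setting of the counting is not given. VIM shares 641 exon bases with VIM-AS1, which had 154 to 459 reads, and 619 with the antisense gene AL133415.1, which had 146 to 413. ZEB1 shares 366 with ZEB1-AS1, which had 128 to 263. VIM-AS1 had log2 fold changes of -0.39 for 8 against 1 kPa (adjusted p = 0.243), -0.01 for 30 against 8 kPa (adjusted p = 0.985) and -0.40 for 30 against 1 kPa (adjusted p = 0.343). ZEB1-AS1 had 0.05, -0.10 and -0.05 (adjusted p = 0.737, 0.527 and 0.786), so neither passed in edgeR. TWIST1 shares 141 exon bases and ZEB2 1299 with antisense genes of at most 59 and 9 reads. PRRX1, TWIST2, SNAI2, RUNX1, RUNX2 and FN1 shared no exon bases with an annotated antisense gene.

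Genes most like PRRX1 and TWIST2 were ranked by Pearson's r of log2 CPM over the 12 libraries, among 11673 genes with a symbol and at least 5 CPM on average. PRRX1 was followed most closely by EFCAB14 (r = 0.977), the ferric reductase CYBRD1 (r = 0.955) and OR10AC1 (r = 0.953). TWIST2 was followed by the cytosolic isocitrate dehydrogenase IDH1 (r = 0.949), the respiratory complex III subunit UQCRC1 (r = 0.946) and the ubiquitin-conjugating enzyme UBE2E1 (r = 0.925). These values describe 12 libraries that share their stiffness groups and depth classes, and they were picked as the highest of many.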

How the data were processed

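Expression was read from 1 deposited table of raw counts per Ensembl gene, with 4 libraries per stiffness. Reads were aligned with HISAT2 to GRCh38, per the submitters' processing notes. The counting tool, annotation, strand setting and filters are not given in the sources used here. Of 60664 identifiers, 42028 had a symbol. Positions come from GENCODE v29 on GRCh38 and promoters from RefSeq on GRCh38.p14.

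The counts were tested with edgeR 4.0.16 (R 4.3.3): filterByExpr kept 17960 genes, TMM scaled the libraries, and 1 fit of 12 libraries with stiffness as the term gave quasi-likelihood F-tests, Benjamini-Hochberg adjusted over all tested genes at 0.05. SE is the size of the log2 fold change over the root of F, intervals are 95%, and CPM uses TMM library sizes. The biological coefficient of variation was 0.0966. All adjusted p-values are from edgeR unless another tool is named. DESeq2 1.42.0, limma-voom 3.58.1, other scalings, filters, a replicate block, a depth class (5 shallow and 7 deep libraries) and leaving out each library were alternatives. The fitting steps were tested on simulated data.

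All 10 members are named, as are up to 3 genes of each list with the smallest adjusted p in each comparison, plus others that passed; some listed genes are not reported here. Members and lists were chosen with earlier results of these data known.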

Additional observations from a re-analysis of the deposited data

Results flagged for a closer look

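Over the 10 genes and 3 stiffnesses, 30 groups of 4 libraries were searched for a single library far from the others, and chance alone would give about 1 in 20 groups. FN1 in 8 kPa replicate 4 stood out, at 621.624 CPM beside 438 to 469 CPM in the other 3 libraries at 8 kPa. Without that library the FN1 log2 fold change was 0.24 for 30 against 8 kPa (adjusted p = 0.140 in edgeR) and -0.15 for 8 against 1 kPa. The same library was the highest of its group for VIM and RUNX2 and the lowest for the other transcription factors except RUNX1.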

How the results depend on the processing

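The number of genes called moved with the tool and the libraries used. For 8 against 1 kPa, 2472 genes and 1 member passed. Fitting those 8 libraries alone gave 1068 and 0, DESeq2 gave 3072 genes and 2 members, and leaving out 1 library gave 534 to 3563 genes and 0 to 2 members. For 30 against 8 kPa, edgeR called 0 genes, with 3218 at an unadjusted p under 0.05, against 330 without the filter, 414 and 1 member with DESeq2, 40 with the replicate block, 61 with 8 libraries, and 0 to 1026 and 0 to 1 without 1 library. For 30 against 1 kPa, 437 genes and 1 member passed, against 263 with library size alone, 875 without the filter, 1068 with DESeq2, 974 and 2 members with the replicate block (VIM added, adjusted p = 0.0311), and 50 to 676 and 0 to 1 without 1 library. Across the 3 stiffnesses, 1646 genes and 2 members passed, against 3090 with DESeq2, 2626 with the replicate block, 1 member with voom, and 230 to 3234 and 1 to 3 without 1 library. With the depth class as a term 0 genes and 0 members passed in edgeR in all 4 tests, with 4299 (8 against 1 kPa), 2036 (30 against 8 kPa), 1763 (30 against 1 kPa) and 4030 (all stiffnesses) at an unadjusted p under 0.05.

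Same-numbered libraries had correlations of their deviations from -0.13 to 0.37, most of them above 0. The labels do not say whether equal numbers share a source. The main fit did not take the numbers as pairs, and the replicate block above shows the calls when it did.

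Some directions turned, of which PLAU at 30 against 1 kPa had the largest value in the main design (0.40). With the depth class as a term the values were 0.083 for SNAI2 and 0.25 for CLDN4 at 8 against 1 kPa, and -0.17 for RUNX1, -0.043 for RUNX2, -0.13 for FN1, 0.21 for CLDN4 and -0.065 for PLAU at 30 against 1 kPa. At 8 against 1 kPa, library size alone gave 0.014 for VIM, 0.016 for FN1 and 0.020 for CLDN4, and no filter gave 0.0046, 0.0038 and 0.012. RUNX2 at 30 against 1 kPa was -0.00025 with 8 libraries. Without 1 library, SNAI2 ran from -0.10 to 0.075, VIM from -0.11 to 0.075, FN1 from -0.15 to 0.050 and CLDN4 from -0.083 to 0.086 at 8 against 1 kPa, and EPCAM from -0.074 to 0.19 and VIM-AS1 from -0.23 to 0.12 at 30 against 8 kPa. At 30 against 1 kPa TWIST1 ran from -0.031 to 0.16, ZEB2 from -0.036 to 0.066, RUNX1 from -0.018 to 0.21 and RUNX2 from -0.087 to 0.10. The cause was not tested. TWIST2, with 62 to 199 reads per library, had the least depth of the set.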
